A study of Homo sapiens with 6 samples.

Results

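The NRF2 antioxidant genes are 10 genes of 23346 in the deposited table, taken by symbol: the transcription factor NFE2L2 (NRF2), its inhibitor KEAP1, and 8 genes of glutathione, thioredoxin, quinone and heme metabolism (SLC7A11, GCLC, GCLM, TXN, TXNRD1, SRXN1, NQO1 and HMOX1). All 10 had a row, and all 10 passed the filter of a mean of at least 0.5 RPKM (reads scaled to gene length and library depth), as did 14776 genes in all. They were followed in the established human embryonic stem cell line KhES-1. The cells grew in AKIT or, as the control, in Essential 8 (E8) medium, on a laminin fragment coated at 0.5 µg per square cm in both. E8 supplies FGF2 and TGF-beta in a defined medium, while AKIT is known for using inhibitors of GSK3, DYRK kinases and calcineurin in their place. RNA sequencing gave 3 AKIT libraries (replicates 1 to 3) and E8 libraries of replicates 1 and 2. The third E8 replicate was not analysed here. All libraries come from 1 cell line, and separate cultures are not stated for the replicates, so p-values measure a spread between libraries that may be technical.

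NRF2 binds, with a small MAF partner, to antioxidant response elements near genes that make glutathione, recycle thioredoxin and clear quinones, heme and peroxides. KEAP1 holds NRF2 in the cytoplasm and passes it to the CUL3 ubiquitin ligase for breakdown until oxidants or electrophiles modify KEAP1, so NRF2 activity is set largely at the protein level, which RNA does not report. A second route of NRF2 breakdown runs through GSK3 and the adaptor BTRC.

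Windows around the annotated starts were searched for the core of the antioxidant response element, TGACNNNGC, on both strands. RefSeq's table (build GRCh38.p14, a later build than that of the expression values) held 11 windows of 300 bases for 8 of the 10 genes, and none for HMOX1 or SLC7A11. The core was found in windows of GCLM, KEAP1 and TXNRD1, and 13.3% of all 35116 windows hold it. The stretches below, 5′ to 3′ on the gene's strand, all lie before the start of the gene, and capitals mark the match, which reads as the core on the opposite strand. They are shown because GCLM and KEAP1 share 13 letters around it.
GCLM, chr1:93909431-93909494, minus strand: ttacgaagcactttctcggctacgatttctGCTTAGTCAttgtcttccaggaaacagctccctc
KEAP1, chr19:10502772-10502832, minus strand: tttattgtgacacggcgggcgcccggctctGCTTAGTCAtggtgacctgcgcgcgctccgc
TXNRD1, second start, chr12:104286900-104286968, plus strand: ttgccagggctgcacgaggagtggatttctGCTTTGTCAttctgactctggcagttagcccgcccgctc
The match begins 34 bases before the GCLM start, 31 bases before the first listed KEAP1 start and 102 bases before the TXNRD1 start. KEAP1 had 1 further match in this window (in lower case above) and TXNRD1 had 2 in the window of its other start.

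The members with the largest fall and the largest positive difference between media, SRXN1 and TXN, had no match to this core in their windows, which says only that these letters are not there. Their last 100 bases before the start are shown because their mean differences had opposite signs, although that of TXN did not pass the test used below. Whether these sequences bear on the levels was not tested. The capitals in TXN mark a TATA sequence (TATAAA and, overlapping it, the same letters read on the opposite strand), found in 11.5% of all windows and not in that of SRXN1.
SRXN1, chr20:653201-653300, minus strand: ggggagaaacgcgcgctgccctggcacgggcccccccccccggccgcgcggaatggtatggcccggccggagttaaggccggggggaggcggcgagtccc
TXN, chr9:110256508-110256607, minus strand: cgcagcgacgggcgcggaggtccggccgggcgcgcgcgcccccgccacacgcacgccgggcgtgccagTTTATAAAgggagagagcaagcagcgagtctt

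The libraries rested on 16242864 to 23263095 reads, and the 10 genes on 357 to 5645 reads per library. AKIT replicate 2 stood apart from the other AKIT libraries, on the second principal component (17.2% of the variance), where it scored 27.3, the other AKIT libraries -12.7 and -9.61 and the E8 libraries -2.91 and -2.13. Counts of called genes are therefore also given without it. Differences between media are of log2(RPKM + 1), AKIT minus E8, a scale that understates changes of low genes, and carry ± the standard error of limma's moderated test. "Rose" and "fell" are used of genes with a limma p under 0.05 after Benjamini-Hochberg adjustment over all 14776 genes. An SD follows each mean after ±, over n = 3 AKIT and n = 2 E8 libraries. In bulk RNA, fewer cells with a transcript and less of it per cell cannot be told apart.

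The comparison of media asked how expression in AKIT differed from that in E8. Of the 10 genes, SRXN1 fell and 0 rose, against 20.0% of all tested genes called in either direction (8.22% higher and 11.7% lower in AKIT). The means of 8 of the 10 genes were higher in AKIT on the log2 scale, by 0.05 to 0.63, and those of KEAP1 and SRXN1 were lower. The median log2 difference of the 10 genes was 0.18, and that of all tested genes was -0.01. For 5 of the 10 genes the libraries of the media did not overlap (4 higher and 1 lower in AKIT), as was the case for 54.4% of all tested genes (25.8% higher and 28.6% lower). Without AKIT replicate 2, NFE2L2, SLC7A11, TXN and NQO1 also passed the test, all higher in AKIT, and SRXN1 was again lower. In that fit 32.2% of 14747 genes were called (14.5% higher and 17.8% lower). Leaving out AKIT replicate 1 or 3, the count among the 10 genes stayed at 0 higher and 1 lower, where 13.9% (5.35% higher, 8.50% lower) and 12.2% (4.62% higher, 7.55% lower) of all genes were called. Leaving out E8 replicate 1 or 2, 0 of the 10 genes were called in either direction, where 2.69% (0.969% higher, 1.72% lower) and 2.66% (0.963% higher, 1.70% lower) of all genes were. With the replicate number as a block, SRXN1 alone of the 10 was called, where 8.91% of all genes were (3.33% higher, 5.58% lower). The share of all genes called was 19.2% with a pseudocount of 0.1, 12.5% without a filter, 20.0% with median-of-ratios scaling and 21.3% with voom on recovered reads, and in each SRXN1 was the 1 call among the 10 genes. Counts of the other gene lists below are to be read beside the share of all genes given here for the same fit.

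**Figure D1:**
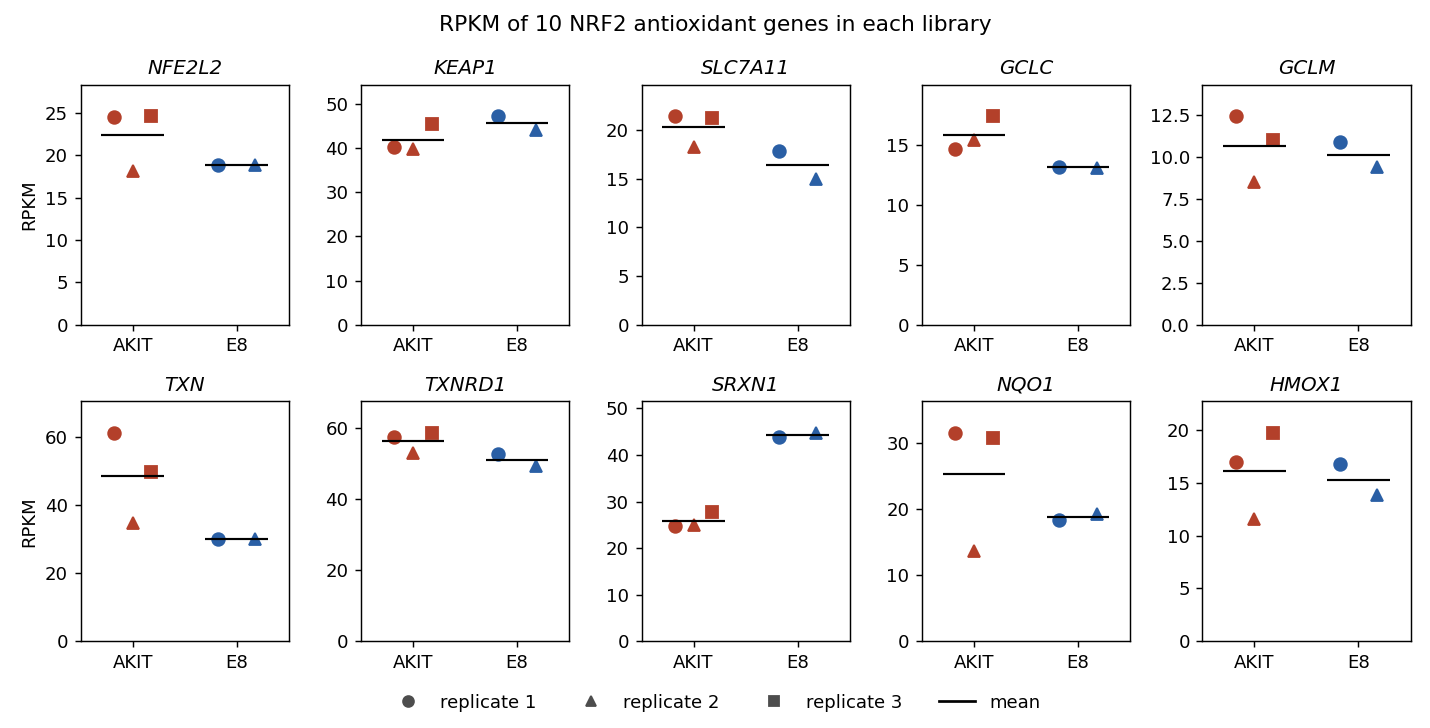
RPKM (vertical axes, from 0) of each of the 10 genes in every library of AKIT (left, red) and E8 (right, blue), with symbols for the replicates and a line for the mean. SRXN1 lay at 24.7 to 27.7 RPKM in AKIT and at 43.8 and 44.8 in E8, and AKIT replicate 2 (triangle) was the lowest AKIT library for 8 genes.

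NFE2L2, the gene of NRF2, stood at 24.5, 18.2 and 24.6 RPKM in AKIT replicates 1, 2 and 3, against 18.9 and 18.8 RPKM in E8 replicates 1 and 2. AKIT replicates 1 and 3 were above both E8 libraries and AKIT replicate 2 was below them. The log2 difference was 0.23 ± 0.15 (limma adjusted p = 0.308), with a 95% interval from -0.12 to 0.57. With that library left out it was 0.37 (limma adjusted p = 0.0178, and 0.0178 to 0.599 across the alternatives).

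KEAP1, the inhibitor, had 40.3, 39.9 and 45.6 RPKM in AKIT replicates 1 to 3, against 47.2 and 44.1 RPKM in E8. Its libraries overlapped between the media, through AKIT replicate 3. The log2 difference was -0.12 ± 0.10 (limma adjusted p = 0.428, 95% interval -0.36 to 0.12). Within a library, KEAP1 exceeded NFE2L2 by 1.64-, 2.19- and 1.85-fold in AKIT and by 2.50- and 2.34-fold in E8. All 3 AKIT ratios were below both E8 ratios, with a log2 difference of -0.36 (two-sided exact permutation p = 0.2, the smallest that 3 against 2 libraries can give).

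Of 20 genes for partners and breakdown of NRF2, NFE2 fell and 0 rose, where 11.7% of all tested genes fell and 8.22% rose. The median log2 difference was 0.00, beside -0.01 for all tested genes. NFE2, the blood-cell relative of NRF2 that binds the same class of sites, was at 2.47, 2.84 and 1.99 RPKM in AKIT and 6.26 and 5.75 in E8, which gave -1.03 ± 0.14 (limma adjusted p = 0.00496). Without AKIT replicate 2, 1 gene of this list rose and 2 fell, and with either E8 library left out 0 did. The ligase subunit CUL3 (mean 10.4 RPKM in AKIT and 8.56 in E8), GSK3B (19.8 in AKIT and 19.8 in E8) and the repressor BACH1 (19.5 in AKIT and 19.3 in E8) did not pass, and were chosen after their values were seen.

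SLC7A11 is the cystine carrier that brings in the amino acid limiting for glutathione. It stood at 21.4, 18.2 and 21.3 RPKM in AKIT replicates 1 to 3, against 17.8 and 15.0 RPKM in E8. All 3 AKIT libraries were above both E8 libraries, AKIT replicate 2 by a small margin. The log2 difference was 0.29 ± 0.12 (95% interval 0.00 to 0.58) and did not pass after adjustment over all genes (limma adjusted p = 0.134). The fit without AKIT replicate 2 gave 0.37 (limma adjusted p = 0.041, and 0.041 to 0.605 across the alternatives).

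GCLC, the catalytic subunit of the ligase that takes the first step to glutathione, had 14.6, 15.4 and 17.4 RPKM in AKIT, against 13.2 and 13.1 RPKM in E8. All AKIT libraries lay above the E8 libraries, with a log2 difference of 0.25 ± 0.11 (limma adjusted p = 0.149, 95% interval -0.01 to 0.50). GCLM, the regulatory subunit of the same enzyme, had 12.4, 8.49 and 11.03 RPKM in AKIT, against 10.9 and 9.39 RPKM in E8. Its libraries overlapped, with AKIT replicates 1 and 2 the highest and the lowest of the 5. Its log2 difference was 0.05 ± 0.16 (limma adjusted p = 0.848, 95% interval -0.34 to 0.44). The ratio of GCLC to GCLM within a library was 1.18, 1.81 and 1.57 in AKIT, against 1.21 and 1.39 in E8, which overlapped (log2 difference 0.21, two-sided exact permutation p = 0.6).

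Of 13 other genes of glutathione synthesis and recycling, 2 rose and 2 fell, where 8.22% of all tested genes rose and 11.7% fell. CHAC1 and CHAC2, which both break down glutathione, went in opposite directions. CHAC1 fell to 29.3, 24.1 and 30.8 RPKM in AKIT, against 53.5 and 45.4 in E8 (-0.80 ± 0.14 on the log2 scale, limma adjusted p = 0.00995), and CHAC2 was at 13.4, 11.5 and 12.2 RPKM in AKIT, against 8.08 and 6.71 in E8 (0.67 ± 0.12, limma adjusted p = 0.0125). The glutaredoxin GLRX fell (-0.69 ± 0.18), and GLRX3, named after its values were seen, rose (0.42 ± 0.11). Leaving out AKIT replicate 2, 3 rose and 2 fell, and leaving out either E8 library 0 did. The median of this list was 0.18, and GSS and GSR, the synthetase and the reductase of glutathione, had log2 differences of -0.08 and 0.20 that did not pass.

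Of 20 tested glutathione peroxidases and transferases (23 in the table), 5 rose and 0 fell, where 8.22% of all tested genes rose and 11.7% fell. The median log2 difference was 0.11. Among all genes 14.5% were called higher without AKIT replicate 2, and 5.35% and 4.62% without AKIT replicate 1 and 3. GSTP1, the most abundant of them, had 506, 432 and 543 RPKM in AKIT, against 300.3 and 311 RPKM in E8 (difference in log2 0.68 ± 0.13, limma adjusted p = 0.0136). GPX2, a peroxidase known as an NRF2 target, was at 2.55, 1.78 and 2.68 RPKM in AKIT and at 0.982 and 0.904 in E8 (0.77 ± 0.16). GSTM5 had the largest difference (1.41 ± 0.28), from 3.42, 1.40 and 1.41 RPKM in AKIT and 0.144 and 0.0784 in E8, with AKIT replicate 1 the highest. Its reads may be shared with the closely related GSTM genes, so its level is uncertain. GSTO1 and GPX7 also rose and were named after their values were seen. Without AKIT replicate 2, 8 rose, without AKIT replicate 1 or 3, 3 and 2 rose, and without either E8 library 0 did.

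TXN, thioredoxin, the small protein that reduces disulfides, had the largest positive difference of the 10 genes. It stood at 61.2, 34.7 and 49.6 RPKM in AKIT replicates 1, 2 and 3, against 30.1 and 30.0025 RPKM in E8. All AKIT libraries were above E8, but they spread from 34.7 to 61.2 while the E8 libraries lay together. The mean was 48.5 ± 13.3 RPKM in AKIT and 30.1 ± 0.0995 in E8, a ratio of 1.61, and the log2 difference of 0.63 ± 0.22 did not pass after adjustment (limma adjusted p = 0.0814, 95% interval 0.13 to 1.14). The value without AKIT replicate 2 was 0.85 (limma adjusted p = 0.00359, and 0.00359 to 0.302 across the alternatives). GENCODE release 29 names 7 processed pseudogenes of TXN, none with a row in the table, so reads of near-identical copies may enter or leave its level.

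TXNRD1, the reductase that restores thioredoxin with NADPH, was the most abundant of the 10 genes in both media. It had 57.3, 52.9 and 58.5 RPKM in AKIT, against 52.5 and 49.3 RPKM in E8. The AKIT libraries were all above E8, AKIT replicate 2 by less than the distance between the E8 libraries. The log2 difference was 0.14 ± 0.09 (limma adjusted p = 0.326, 95% interval -0.08 to 0.36). TXNRD1 stood at 0.936, 1.53 and 1.18 times TXN in AKIT libraries and at 1.74 and 1.64 times TXN in E8 libraries (log2 difference -0.51, two-sided exact permutation p = 0.2).

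SRXN1, sulfiredoxin, which repairs over-oxidised peroxiredoxins, fell to 24.7, 24.97 and 27.7 RPKM in AKIT replicates 1, 2 and 3, against 43.8 and 44.8 RPKM in E8. The groups lay far apart, and AKIT replicate 2 lay between the other AKIT libraries. The mean was 25.8 ± 1.66 RPKM in AKIT and 44.3 ± 0.680 in E8, a ratio of 0.582, with a log2 difference of -0.76 ± 0.10 (limma adjusted p = 0.00364, 95% interval -0.99 to -0.53). The difference was -0.73 to -0.81 over the alternatives. With a single E8 library the call ended (limma adjusted p = 0.061 without E8 replicate 1 and 0.0656 without E8 replicate 2). Its exons overlap those of AL121758.1, a coding gene of GENCODE release 29 on the same strand that has no row in the table, so reads may be shared. Exons of GCLC and NFE2L2 also overlap genes on the same strand (AL033397.1 and AC019080.1), neither with a row. NFE2L2 overlaps AGPS, which has a row, on the opposite strand. Further opposite-strand overlaps, with genes that have no row, are those of NFE2L2, GCLC, NQO1 and SLC7A11. The levels of these genes carry the same limit.

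SRXN1 and TXN therefore stood in a different order in the media. SRXN1 was at 0.404, 0.720 and 0.559 times TXN in AKIT libraries and at 1.45 and 1.49 times TXN in E8 libraries. The log2 difference of this ratio was -1.43 (two-sided exact permutation p = 0.2, the smallest these libraries allow) and -1.22 to -1.63 when any 1 library was left out. The genes with the profile most like that of SRXN1 over the 5 libraries were TBC1D15, JUP and KPNA2, with root mean square differences of 0.03, 0.03 and 0.04 between centred log2(RPKM + 1) values. Within 0.1 by this measure lay 170 of the 14775 other genes. TBC1D15, a gene of the Rab GTPase-activating family, was at 3.13, 3.16 and 3.62 RPKM in AKIT and 5.86 and 6.43 in E8. JUP, the junction protein plakoglobin, was at 34.0, 36.2 and 40.6 RPKM in AKIT and 61.5 and 63.2 in E8. KPNA2, a nuclear import receptor, was at 105, 108 and 122 RPKM in AKIT and 177 and 189 in E8.

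**Figure D2:**
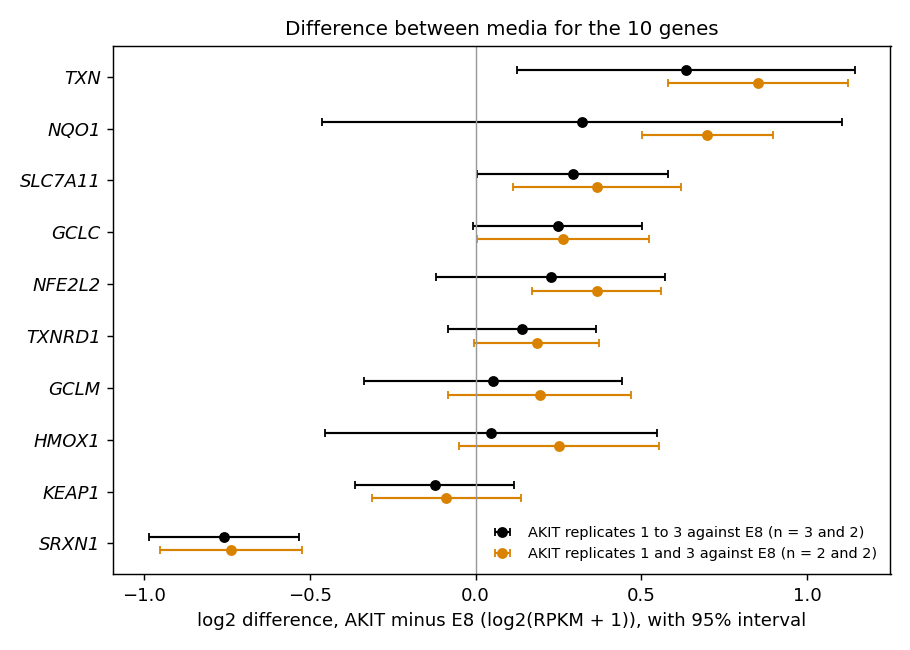
Log2 difference between media (horizontal axis, AKIT minus E8, in log2(RPKM + 1)) for the 10 genes, with 95% intervals of limma's test, with all libraries (black) and without AKIT replicate 2 (orange). SRXN1 lies at -0.76 and -0.74, and NQO1 moves from 0.32 with all libraries to 0.70 without AKIT replicate 2, with a narrower interval.

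Of 18 other thioredoxin and peroxiredoxin genes, 1 rose and 1 fell, where 8.22% of all tested genes rose and 11.7% fell. The median log2 difference was 0.07. PRDX6, a peroxiredoxin with 1 active cysteine, was at 415, 329 and 420.1 RPKM in AKIT and 259 and 265 in E8 (difference in log2 0.56 ± 0.14, limma adjusted p = 0.0312). TXNRD2, the mitochondrial thioredoxin reductase, fell to 1.09, 1.07 and 0.892 RPKM, against 2.05 and 2.19 in E8 (-0.63 ± 0.13, limma adjusted p = 0.0184). PRDX1 and PRDX3, of the peroxiredoxins that SRXN1 can repair, had log2 differences of 0.40 and 0.09 with all libraries, which did not pass. PRDX2 and PRDX4 of the same list had negative ones, -0.22 and -0.05, which did not pass either. All of these were chosen after their values were seen. PRDX1 passed without AKIT replicate 2, at 0.55 (limma adjusted p = 0.00556). Without AKIT replicate 2, 6 genes of the list rose and 1 fell, without AKIT replicate 1 or 3, 0 rose and 1 fell, and without either E8 library 0 were called.

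NQO1, a quinone reductase often used as a reporter of NRF2 activity, had the widest spread of the 10 genes among AKIT libraries on the log2 scale. It stood at 31.6, 13.7 and 30.8 RPKM in AKIT replicates 1, 2 and 3, against 18.4 and 19.3 RPKM in E8. AKIT replicates 1 and 3 were above both E8 libraries and AKIT replicate 2 was below both. The mean was 25.3 ± 10.1 RPKM in AKIT and 18.8 ± 0.644 in E8, with a log2 difference of 0.32 ± 0.33 (limma adjusted p = 0.526) and an interval from -0.46 to 1.11. Leaving that library out, it was 0.70 (limma adjusted p = 0.00248, and 0.00248 to 0.838 across the alternatives). Reads behind these values were 1902, 824 and 1546 in AKIT and 840 and 811 in E8, the fewest per total reads in AKIT replicate 2.

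HMOX1, heme oxygenase, which is also induced by loss of its repressor BACH1 from its enhancers, had 17.0, 11.6 and 19.7 RPKM in AKIT, against 16.7 and 13.8 RPKM in E8. The libraries overlapped fully, AKIT holding both the highest and the lowest. The log2 difference was 0.05 ± 0.21 (limma adjusted p = 0.895, 95% interval -0.45 to 0.55), and it changed sign when some single libraries were left out.

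**Figure D3:**
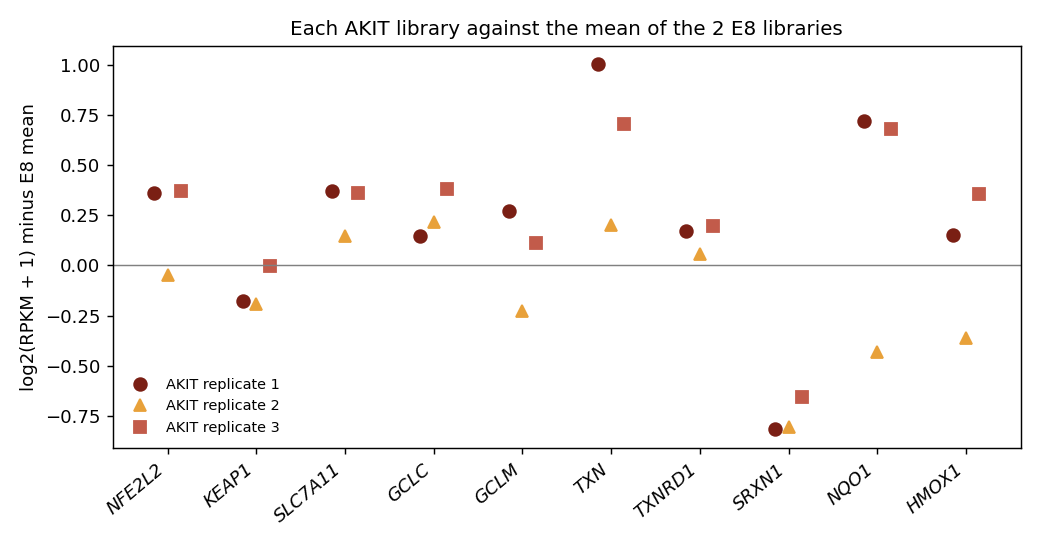
Log2(RPKM + 1) of each AKIT library minus the mean of the E8 libraries (vertical axis) for the 10 genes (horizontal axis), with a symbol for each AKIT replicate. AKIT replicate 2 lies at -0.43 for NQO1 and -0.36 for HMOX1, while AKIT replicates 1 and 3 lie at 0.72 and 0.68 for NQO1, and all 3 libraries lie together for SRXN1.

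AKIT replicate 2 was the lowest AKIT library for 8 of the 10 genes, all but GCLC and SRXN1, and for 40.1% of all tested genes. AKIT replicate 1 was the lowest for GCLC and SRXN1, and AKIT replicate 3 for 0 of the 10. Against the E8 mean, AKIT replicate 2 was lower for 6 genes, namely NFE2L2, KEAP1, NQO1, HMOX1, GCLM and SRXN1.

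In the order of levels, which RPKM allows between genes since it is per length, TXNRD1 came first in AKIT (56.3 ± 2.96 RPKM), followed by TXN (48.5 ± 13.3), KEAP1 (41.9 ± 3.17) and SRXN1 (25.8 ± 1.66). In E8 the order was TXNRD1 (50.9 ± 2.31 RPKM), KEAP1 (45.7 ± 2.22), SRXN1 (44.3 ± 0.680) and TXN (30.1 ± 0.0995). GCLM was the lowest in both, at 10.7 ± 2.002 RPKM in AKIT and 10.1 ± 1.07 in E8. In AKIT the range of TXN overlapped those of TXNRD1 and KEAP1, which did not overlap each other. In the order SRXN1, NQO1, NFE2L2, SLC7A11, HMOX1 and GCLC the AKIT libraries of each gene overlapped those of the next. Such ranges do not compare genes within a library, where SLC7A11 was above HMOX1 every time. Further apart in the order, every AKIT library of SRXN1 lay above those of NFE2L2, SLC7A11, HMOX1 and GCLC. For NFE2L2 the margin was small, with 24.71 RPKM the lowest of SRXN1 and 24.62 the highest of NFE2L2. Every AKIT library of NFE2L2 and SLC7A11 lay above those of GCLC. In E8, KEAP1 with SRXN1, NFE2L2 with NQO1, and SLC7A11 with HMOX1 overlapped.

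Of 13 tested genes of detoxification and efflux (21 in the table), 5 rose and 0 fell, where 8.22% of all tested genes rose and 11.7% fell. The median log2 difference was 0.41, beside -0.01 for all tested genes. CBR3, a carbonyl reductase, had the largest difference of all genes in these lists, at 16.3, 11.02 and 17.7 RPKM in AKIT, against 2.60 and 1.61 RPKM in E8 (difference in log2 2.36 ± 0.23, limma adjusted p = 0.00171). CBR1, its close relative, was at 273, 186 and 276 RPKM in AKIT and 109 and 105 in E8 (1.16 ± 0.18, limma adjusted p = 0.00763). In both, AKIT replicate 2 was the lowest AKIT library and still far above E8. ABCG2, an efflux pump, rose (0.87 ± 0.22), as did EPHX1 and ALDH3A2, which were named after their values were seen. The 8 genes below the filter included AKR1C1, AKR1C2, AKR1C3 and AKR1B10, reductases known as strongly NRF2-responsive in human cells, each at no more than 0.58 RPKM in any library. Leaving out AKIT replicate 2, 7 of the list rose (14.5% of all genes in that fit), and without E8 replicate 1 or 2, 2 and 1 rose (0.969% and 0.963% of all genes).

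Of 9 genes of heme and iron, BLVRB, a biliverdin reductase, rose (24.97, 24.5 and 22.4 RPKM in AKIT, against 16.1 and 17.9 in E8, log2 difference 0.47 ± 0.10). SLC48A1, a heme transporter, fell (4.66, 4.25 and 5.73 RPKM in AKIT, against 9.65 and 8.34 in E8, -0.77 ± 0.14). Their limma adjusted p-values were 0.0221 and 0.0135. No other gene of the list passed with all libraries, where 8.22% of all tested genes rose and 11.7% fell. The ferritin chains FTH1 and FTL, also NRF2 targets, had log2 differences of -0.11 and -0.03 that did not pass, and were chosen after their values were seen. With AKIT replicate 2 left out, 3 genes of the list rose, and without AKIT replicate 1 or either E8 library 0 did.

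Of 9 genes of NADPH supply, which feeds both the thioredoxin and the glutathione reductase, 2 rose and 0 fell, with a median of 0.09. Of all tested genes 8.22% rose and 11.7% fell. TALDO1, transaldolase of the pentose phosphate pathway, was at 54.5, 50.1 and 55.4 RPKM in AKIT and 29.8 and 28.7 in E8 (difference in log2 0.84 ± 0.09, limma adjusted p = 0.00251). IDH1 rose as well (0.51 ± 0.11, limma adjusted p = 0.0187). PGD, an NADPH-yielding enzyme of that pathway, had a log2 difference of 0.00, which did not pass, and was chosen after its values were seen. Leaving out AKIT replicate 2, 2 genes of the list rose and 1 fell (PGLS, -0.31, limma adjusted p = 0.0487, named after its values were seen). Without E8 replicate 1 or 2, 1 and 0 genes of the list rose. Of 5 tested genes of superoxide and catalase, SOD3, the secreted superoxide dismutase, fell to 1.86, 1.57 and 2.19 RPKM in AKIT, against 10.9 and 11.3 RPKM in E8 (-2.08 ± 0.13, limma adjusted p = 0.000499), a call that held with any 1 library left out. No other gene of that list passed with all libraries, and 1 rose without AKIT replicate 2. CAT, catalase, was at or near 0 in every library, with at most 0.045 RPKM.

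**Figure D4:**
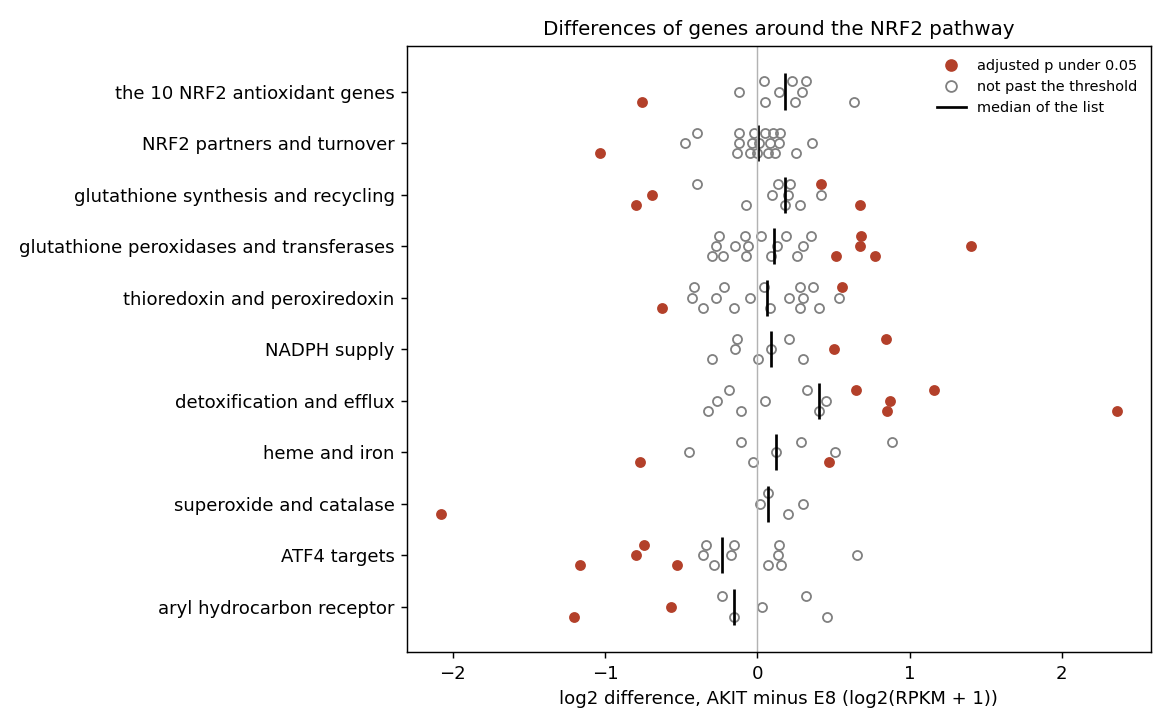
Log2 difference (horizontal axis, AKIT minus E8, in log2(RPKM + 1)) of every tested gene of the 10 NRF2 antioxidant genes and of 10 related lists, with filled points past the limma threshold and a line at the median of each list. Medians lie between -0.23 for ATF4 targets and 0.41 for detoxification and efflux.

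SLC7A11 is also a target of ATF4, the factor of the amino acid response. Of 14 ATF4 genes, 4 fell and 0 rose, where 11.7% of all tested genes fell and 8.22% rose. Their median log2 difference was -0.23, while SLC7A11 had 0.29. Among all genes 17.8%, 8.50% and 7.55% were called lower without AKIT replicate 2, 1 and 3. ASNS, asparagine synthetase, had the largest fall, to 19.2, 13.4 and 20.3 RPKM in AKIT, against 41.2 and 39.1 in E8 (difference in log2 -1.16 ± 0.18, limma adjusted p = 0.00661), beside CHAC1 above and TRIB3 (-0.75 ± 0.20). PHGDH, named after its values were seen, fell as well. The fit without AKIT replicate 2 had 4 ATF4 genes lower and 1 higher, the amino acid carrier SLC7A5 (0.82, limma adjusted p = 0.00588), named after its values were seen. In the fits without AKIT replicate 1 and 3, 5 and 3 were lower and 0 higher. NQO1 is also a target of the aryl hydrocarbon receptor. Of 7 tested genes of that receptor's list, NQO1 included, 2 fell and 0 rose, with a median of -0.15. These were TIPARP (5.13, 3.15 and 2.67 RPKM in AKIT, against 8.90 and 10.02 in E8) and AHRR (-0.57 ± 0.14). CYP1A1 and CYP1B1 had log2 differences of -0.229 and 0.455 that did not pass, and were chosen after their values were seen. Both were highest in AKIT replicate 1, at 4.01 and 21.5 RPKM. Of this list 2 fell and 1 rose (NQO1) without AKIT replicate 2, and 1 fell without AKIT replicate 1 or 3. With either E8 library left out, 0 genes of both lists were called.

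The cells carried pluripotency markers in both media, with POU5F1 at 399.99, 296 and 350.7 RPKM in AKIT and 342 and 313 in E8. Of 10 such markers, SOX2 and PODXL fell and 0 rose, where 11.7% of all tested genes fell and 8.22% rose. Markers of other cell types moved with the media and with single AKIT libraries. Of 8 tested fibroblast and mesenchyme markers 5 fell and 0 rose, with FAP at 0 in every library. Their summed level over 10 genes was 274, 210.3 and 215 RPKM in AKIT and 369.6 and 368 in E8. Most of it was THY1, at 203, 145 and 157 RPKM in AKIT and 275 and 273 in E8, so the sum mainly follows that gene. S100A4, PDGFRB and THY1 had the largest falls (log2 differences -1.56, -1.15 and -0.71). LUM was at 5.81, 1.83 and 0.0244 RPKM in AKIT replicates 1 to 3, against 0 in E8. Of 6 tested trophoblast and amnion markers 3 fell (IGFBP3, TFAP2A and KRT7) and 0 rose. Summed levels over 8 genes were 29.5, 12.8 and 10.6 RPKM in AKIT and 36.9 and 34.1 in E8. IGFBP3 alone held 13.6, 7.43 and 5.39 RPKM in AKIT and 26.2 and 24.2 in E8. HAND1 and CGA were higher in every AKIT library than in E8 but did not pass (log2 differences 1.10 and 0.80), nor did GATA3 (-0.12). Of 3 tested endoderm markers FOXA2 rose, with summed levels over 8 genes of 4.64, 6.63 and 4.25 RPKM in AKIT and 2.49 and 2.15 in E8, and TTR at 0 throughout. Of 4 tested neural markers TUBB3 rose, with summed levels over 8 genes of 403, 395 and 424 RPKM in AKIT and 365 and 344 in E8. Most of these sums was NES (191, 207 and 196 RPKM in AKIT, 222 and 209 in E8) and TUBB3 (205, 179 and 224 in AKIT, 136 and 128 in E8). Without AKIT replicate 3, 2 fibroblast markers rose and 2 fell, and without AKIT replicate 1, 3 fell. Without either E8 library 1 fibroblast marker fell, and 0 pluripotency, trophoblast, endoderm or neural markers were called. The fit without AKIT replicate 2 had 3 pluripotency markers lower and 1 higher, and that without AKIT replicate 3 had 1 lower. Of the trophoblast markers 3 fell and 1 rose without AKIT replicate 2 or 3. The part of these cells in the values of the 10 genes was not tested.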

How the data were processed

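Total RNA of KhES-1 cells was column-purified and sequenced as Illumina libraries, as the labels' protocols state. The authors deposited RPKM values for 23346 gene symbols, and the submitters' processing notes name hg19 and GRCh37. Aligner, counter, annotation and strand setting: not given in the sources used here. Reads of overlapping antisense genes therefore cannot be told apart. Columns were matched to samples by title. The series has 6 samples, and the columns of 5 were used, so the fit compared 3 with 2 libraries.

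The smallest RPKM steps of a gene equal 1 read. Reads recovered from these steps were whole (tolerance 0.02) for 100.0% of the 19892 genes above 0, and served for depth and 1 alternative. In a gene of 1 kb, 1 read was worth 0.043 to 0.062 RPKM. The chi-square per gene was 3.32 between the E8 libraries and 16.6 to 31.5 between AKIT libraries, and no libraries were merged. The fit takes 1 spread for both groups, so its standard errors and intervals do not follow this inequality.

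Media were compared with limma 3.58.1 in R 4.3.3 (trend enabled, two-sided, no covariates) on log2(RPKM + 1). Genes needed a mean of 0.5 RPKM or more. The fit was tested on simulated reads with equal spread in both groups and no outlying library. These data differ in both respects, so that test does not show how the fit performs here. Ratios within a library were compared by exact permutation over libraries. Alternatives were a pseudocount of 0.1, no filter, median-of-ratios scaling, a replicate block, voom on recovered reads, and each library left out. AMER1 and MSRB1 were matched through older symbols.

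By the naming rule the 10 genes were always named. From each of 15 other lists up to 3 called genes were named by size of change, and the 3 genes nearest to each called member (up to 3 members). The members and lists were chosen with earlier results of these data known.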

Additional observations from a re-analysis of the deposited data

How the results depend on the processing

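SRXN1 was lower in AKIT under all alternatives, and its call ended where 1 E8 library was left out. The number of the 10 genes that rose was 0 with all libraries and 0 to 4 with each library left out in turn, with 4 without AKIT replicate 2. The number that fell was 1 and ranged from 0 to 1 over the same fits. Over all genes 1214 rose and 1736 fell, and these counts were 142 to 2132 and 250 to 2619 with each library left out. The log2 difference of HMOX1 was 0.05 with all libraries and -0.107 to 0.252 with 1 left out (-0.004 without AKIT replicate 1, -0.107 without AKIT replicate 3, -0.083 without E8 replicate 2). That of GCLM was 0.05 and -0.058 to 0.193 (-0.058 without AKIT replicate 1, -0.046 without E8 replicate 2). The replicate block gave 492 higher and 824 lower genes over the table, -0.107 for HMOX1 and the same 1 call among the 10 genes (SRXN1). In that fit AKIT replicate 3 has no E8 partner and adds nothing to the difference. Deviations of same-numbered libraries from their group mean correlated at -0.00128 and 0.0254 over genes. With 2 E8 libraries their deviations mirror each other, so these values cannot decide whether equal numbers pair the libraries. A pseudocount of 0.1, no filter, median-of-ratios scaling and voom left the direction and call of all 10 genes as they were. Of 34 other named genes, 30 and 31 lost their call without E8 replicate 1 and 2, 6 and 7 without AKIT replicate 1 and 3, 13 with the replicate block and 5 without a filter, and 0 changed sign. The causes were not tested. With 3 and 2 libraries, the 95% interval of NQO1 reached from -0.46 to 1.11, the widest of the 10 genes.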
